A study of Mus musculus with 21 samples.

Results

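COPII and COPI vesicle traffic genes were followed in Myc-CaP cells and tumours with and without IRE1α. The set has 56 genes, taken by symbol from a table of 45706 genes. They comprise 8 COPII coat subunits, 5 COPII assembly factors, 5 cargo receptors, 8 p24 proteins, 3 KDEL receptors and 9 COPI coat subunits. A further 6 genes belong to the ARF cycle, 7 to vesicle fusion and tethering, and 5 to the ERGIC and YIP proteins. They were chosen by the genes' known roles, but with earlier results of these data known, so the list is not blind to them.

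Proteins made at the endoplasmic reticulum (ER) leave it in vesicles with a COPII coat. The GTPase SAR1, switched on by PREB, recruits an inner layer of SEC23 and SEC24 and an outer cage of SEC13 and SEC31, while SEC24 and separate receptors select cargo. COPI vesicles, whose coat is recruited by ARF GTPases, carry escaped ER proteins and receptors back from the Golgi. Tethers and SNARE proteins then join each vesicle to its target. IRE1α senses stress in the ER, and its RNase activity gives the spliced form of Xbp1 mRNA, whose product XBP1s is known to act on genes of folding and secretion.

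Myc-CaP is a mouse prostate cancer line from a mouse with a prostate-driven human MYC transgene, so every library shares that transgene. The groups were wild type (WT) cells in 2 libraries and cells of the lines IRE1A KO1, KO2 and KO3 in 2 libraries each, together with the tumours these cells formed in FVB mice, 4 WT libraries and 3 of each KO line. All KO lines were made with Cas9 and the same guide against IRE1α, and there was 1 WT line, so what is particular to that line and the lack of a knockout cannot be told apart. The labels give no age of the mice and do not say whether a KO line is 1 clone. The total estimated count was 18105510 to 25068239 per cell library and 15994265 to 27497767 per tumour library.

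Ern1, the gene of IRE1α, was not lower in the KO libraries: its mean level was 127 CPM (estimated counts scaled for library size) in WT cells and 182 to 198 CPM in the KO lines, and 73.6 CPM in WT tumours against 61.8 to 82.4 CPM. A small Cas9 lesion need not lower the count of the whole gene, so these counts do not check the KO labels. Of the epithelial markers given here, Krt8 had 442 to 4017 counts per cell library and 1363 to 7412 per tumour, and the prostate gene Hoxb13 had 609 to 923 and 191 to 542. Epcam was at 0 in all cell libraries and at no more than 4 counts in tumours. Cdh1 and Krt18 were at no more than 5 and 16 counts in cells, so these 3 defining markers were absent or nearly so. Host cells were present in the tumours: leukocyte markers summed to 336 to 895 CPM there, and to at most 4.47 CPM in cells. WT tumour 1 held the highest summed level of neutrophil markers (267 CPM), and in WT tumour 4 the gene Yam1, which lies over ribosomal RNA, took 24% of counts against 6.16% to 8.47% in the other tumours. In tumours, fewer cancer cells and less RNA per cell cannot be told apart.

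In cultured cells, the KO lines held less mRNA of most of the 56 members. Of the 55 members tested, 47 were lower in KO than in WT cells and 0 were higher, with a median log2 fold change of -0.63 against 0.024 over all genes. Over all 12254 genes tested, 9.76% were called lower and 4.99% higher. These calls are from edgeR's quasi-likelihood test, with Benjamini-Hochberg adjusted p under 0.05, of 6 KO against 2 WT libraries. At an unadjusted p under 0.05, 50 members were lower and 1 was higher, and DESeq2 called 48 lower and 0 higher. In 48 of the 56 members each KO library lay below both WT libraries, a pattern seen in 17.5% of all genes tested. The member not tested, Sec16b, had 0 or 1 counts per cell library.

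Each role took part. All 8 COPII coat subunits were lower, as were all 4 tested assembly factors, 4 of 5 cargo receptors, 6 of 8 p24 proteins and 2 of 3 KDEL receptors. Of the COPI coat 7 of 9 were lower, of the ARF cycle 5 of 6, of fusion and tethering 7 of 7, and of the ERGIC and YIP proteins 4 of 5. The 8 members tested and not called were Lman2l, Tmed1, Tmed5, Kdelr1, Copg2, Copz1, Arfgap2 and Yif1a. Some of the 47 calls were unstable. Those of Tmed4, Sec24a, Ergic2 and Copz2 were lost under 11, 10, 10 and 9 of 18 alternative fits. Those of Preb and Sar1b were lost under 6 and 5. Leaving out WT cell library 1 or 2 gave 31 and 30 lower members. With the libraries summed per line, which leaves 1 WT library against 3 KO, 6 members passed: Kdelr2, Lman1, Sec22b, Sec24d, Surf4 and Tmed3. Each KO line on its own gave a like count against WT cells. KO1 had 51 members lower, where 20.5% of all genes were lower and 17.7% higher. KO2 had 48 (20.2% and 17.4%) and KO3 had 47 (14.1% and 10.4%). Again 0 members were higher in each by edgeR and by DESeq2, and at an unadjusted p under 0.05 there were 1, 1 and 0.

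**Figure D1:**
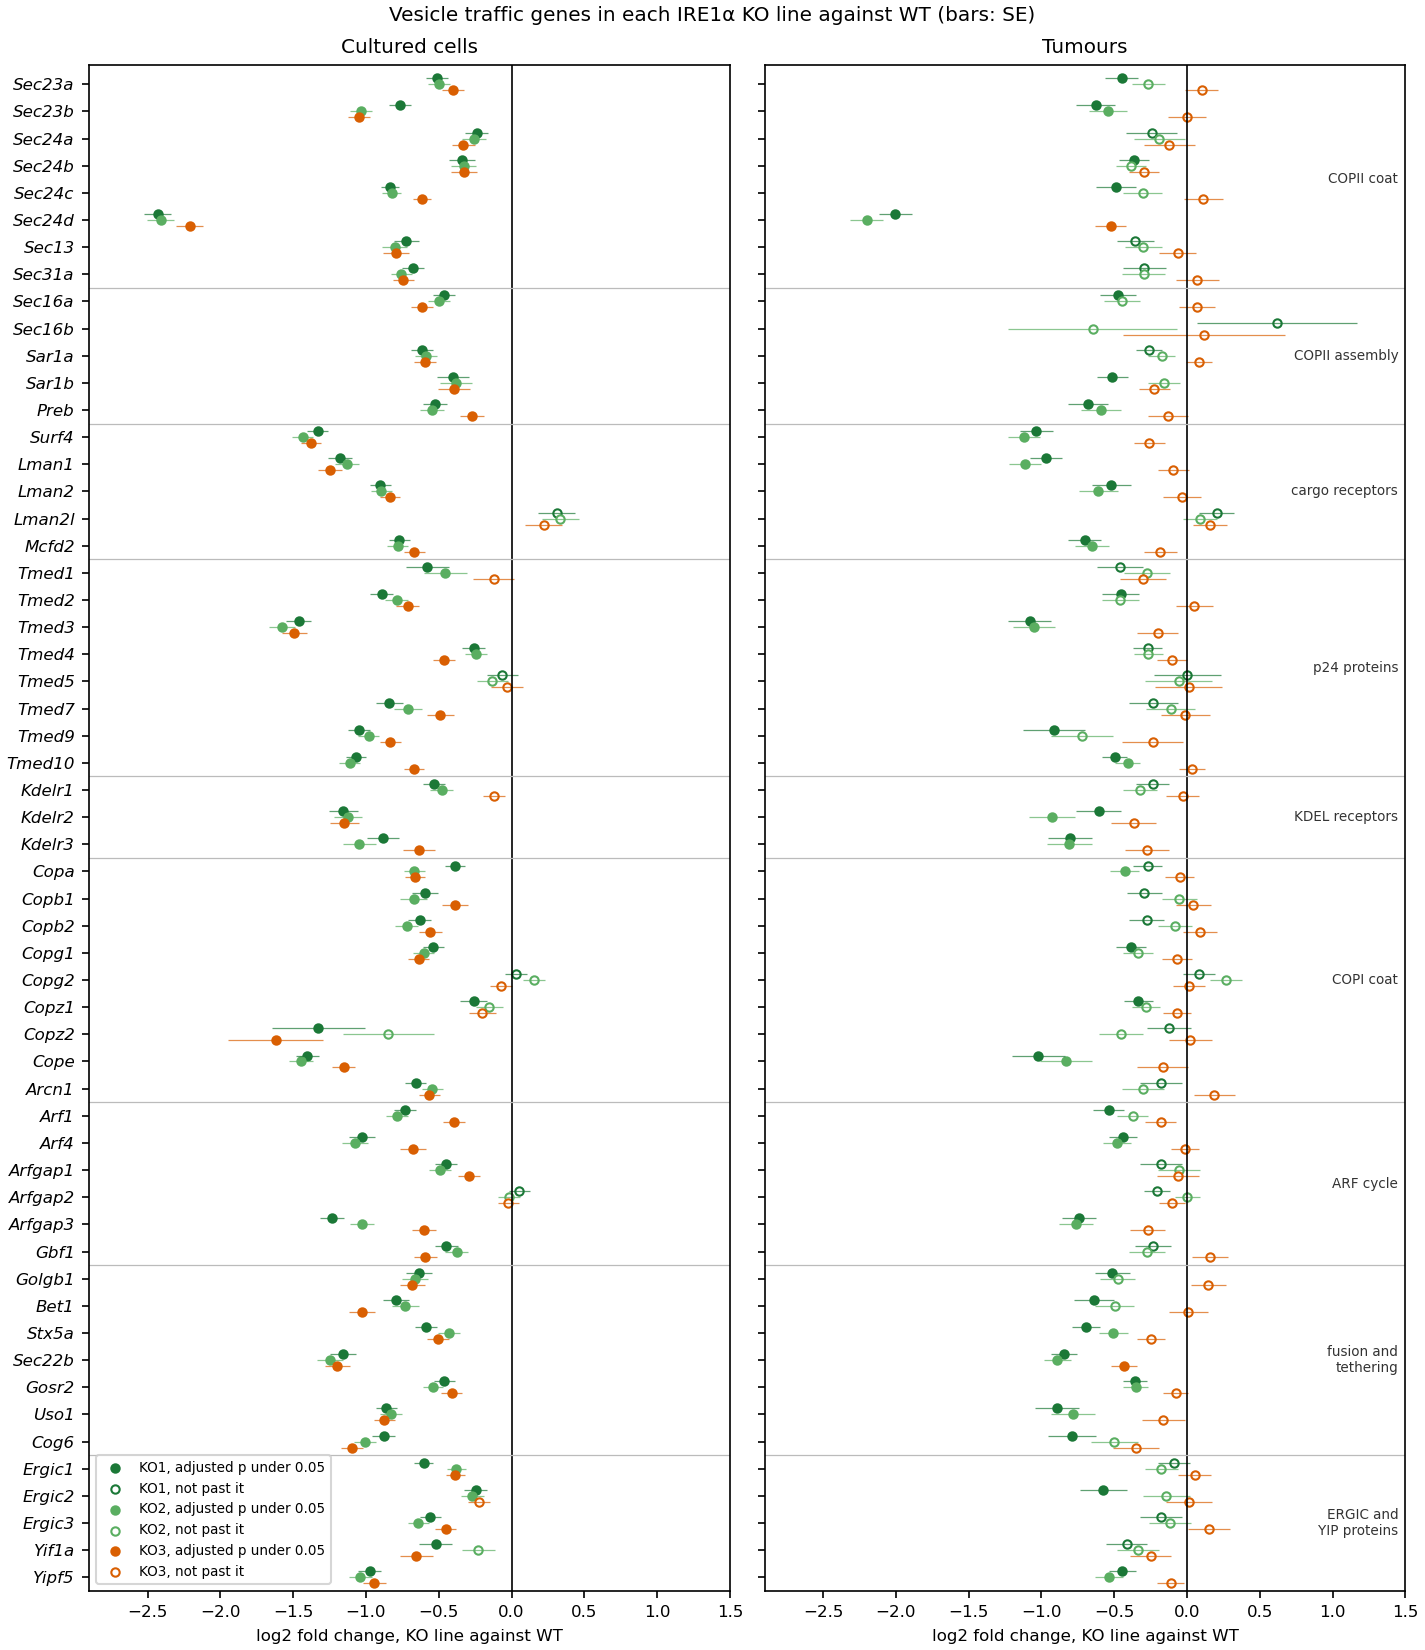
Log2 fold change of each of the 56 members (rows, grouped by role as named at the right) in KO1, KO2 and KO3 against WT, in cultured cells (left) and tumours (right). Bars are SE, filled points have an adjusted p under 0.05; nearly all points lie left of 0 in cells, and in tumours the KO3 points lie near 0 while KO1 and KO2 stay to the left for many genes.

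As a description, the promoters of the members were searched for short motifs known from the ER stress response. RefSeq promoters (GRCm38.p6, 250 bases before to 50 after the start) were found for 49 of the 56 members; Lman1, Tmed2, Tmed7, Kdelr2, Arcn1, Golgb1 and Yipf5 had no entry. The unfolded protein response element TGACGTGG, on either strand, was in 9 of the 49 (18.4%) and in 0.714% of all 27025 symbols with a promoter of this length. Its 7-base core GACGTGG, which each TGACGTGG also contains, was in 18 of the 49 (36.7%) and in 2.73% of all symbols. The classical ER stress element, CCAAT and CCACG 9 bases apart, was in 0 of the 49 and 0.137% of all. Its second form, ATTGG and CCACG 1 base apart, was also in 0 of the 49 and in 0.0444% of all. CACGTG was in 8.16% of members and 8.09% of all symbols, and TGACGTCA was in Cope and Gosr2 (4.08% against 2.03%). The symbols were not limited to genes expressed here, as nearly all members are, and no such background was counted. A match is a description of the letters in this window only.

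The stretches below show where the match lies in 8 of the members that fell, 5′ to 3′ on the gene's strand, with the match in capitals (CCACGTC is GACGTGG read on the other strand).
Sec24d (chr3:123267450-123267495, plus strand): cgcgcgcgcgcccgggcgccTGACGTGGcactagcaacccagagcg
Copb1 (chr7:114254681-114254728, minus strand): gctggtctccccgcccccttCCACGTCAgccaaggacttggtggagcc
Kdelr3 (chr15:79516358-79516405, plus strand): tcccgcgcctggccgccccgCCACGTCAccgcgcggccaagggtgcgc
Gbf1 (chr19:46152526-46152557, plus strand): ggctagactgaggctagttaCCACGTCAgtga
Tmed3 (chr9:89705219-89705265, minus strand): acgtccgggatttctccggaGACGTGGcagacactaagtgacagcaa
Sec24c (chr14:20674225-20674271, plus strand): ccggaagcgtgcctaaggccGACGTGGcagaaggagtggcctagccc
Arf4 (chr14:26638011-26638057, plus strand): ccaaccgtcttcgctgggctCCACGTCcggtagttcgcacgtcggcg
Uso1 (chr5:92137872-92137918, plus strand): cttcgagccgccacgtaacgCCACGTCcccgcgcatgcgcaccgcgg
The first 4 hold the full element at -26 to -19, -28 to -21, -30 to -23 and -12 to -5 from RefSeq's start. The other 4 hold the core at -202 to -196, -76 to -70, -103 to -97 and -46 to -40 from it. GENCODE M21, the source of the gene positions printed here, begins some of these genes further 5′. There Sec24d, Copb1 and Gbf1 begin at 123267455, 114254711 and 46152509, so their matches lie inside the annotated gene. The 17 tested members with a core had a median log2 fold change of -0.64 in KO cells, and 16 of them were lower. The 31 without one had a median of -0.47 and 24 were lower, so many members without the letters fell too. For the full element the medians were -0.59 in the 8 members with it and -0.58 in the 40 without. For CACGTG they were -0.80 (4 members) and -0.55 (44), and for TGACGTCA -0.90 (2) and -0.58 (46). None of these differences was tested.

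Among the COPII coat genes, Sec24d stood out in size. Sec24d (chr3:123267455-123365641, plus strand, GRCm38), a cargo-binding subunit, was at 155 and 157 CPM in WT cells, and its lowest, median and highest KO values were 28.2, 29.8 and 37.6 CPM. Its log2 fold change (± SE, here and below) was -2.35 ± 0.091, at adjusted p = 1.59e-06. Every KO library lay far below both WT libraries. Its paralogues fell by less: Sec24c by 0.75, Sec24b by 0.33 and Sec24a by 0.28 on the log2 scale. Sec24c was at 213 and 213 CPM in WT and 119 to 145 CPM in KO cells, Sec24b at 58.3 and 60.2 and 45.0 to 51.0 CPM, and Sec24a at 66.7 and 72.0 and 56.2 to 59.6 CPM. Sec23b fell by 0.94 and Sec23a, its paralogue in the inner coat, by 0.47. The cage subunits Sec13 and Sec31a fell by 0.77 and 0.73. Of the assembly factors, the GTPase gene Sar1a fell by 0.60, the ER exit site scaffold Sec16a by 0.53, Preb by 0.44 and Sar1b by 0.39.

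The cargo receptor genes Surf4 and Lman1 fell by more than 2-fold. SURF4 carries soluble secreted proteins out of the ER; Surf4 (chr2:26920040-26933928, minus strand) was at 406 and 375 CPM in WT cells and at 138, 152 and 159.6 CPM as the lowest, median and highest of KO cells. Its log2 fold change was -1.38 ± 0.068 (adjusted p = 3.11e-06). Lman1, a lectin that with MCFD2 carries coagulation factors, went from 196 and 199.8 CPM to 79.8, 87.3 and 96.2 CPM, a log2 fold change of -1.19 ± 0.076 (adjusted p = 1.63e-05). Its partner Mcfd2 fell by 0.74. Lman2, another lectin of the route, went from 282 and 286 CPM to 145, 159.6 and 167 CPM (log2 fold change -0.88 ± 0.068, adjusted p = 4.35e-05). For these 4 genes the WT and KO libraries did not overlap. Lman2l, the paralogue of Lman2, ran the other way without passing the test: it was at 10.5 and 8.75 CPM in WT and 11.1 to 12.8 CPM in KO cells (log2 fold change 0.29 ± 0.11, adjusted p = 0.118).

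The p24 proteins, which travel in both kinds of vesicle and help to sort lipid-anchored cargo, were led by Tmed3. Tmed3 (chr9:89699206-89705068, minus strand) was at 109.9 and 112 CPM in WT cells and at 37.0, 38.0 and 43.6 CPM in KO cells (log2 fold change -1.51 ± 0.075, adjusted p = 3.11e-06). Tmed9 went from 312 and 286 CPM to 138, 154 and 172 CPM (log2 fold change -0.95 ± 0.086, adjusted p = 0.000123). Both genes were separated from WT in all 6 KO libraries. Tmed10, Tmed2, Tmed7 and Tmed4 fell by 0.94, 0.80, 0.67 and 0.32. Tmed1 (-0.37 ± 0.17) and Tmed5 (-0.075 ± 0.10) did not pass.

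KDEL receptors return ER-resident chaperones from the Golgi. Kdelr2 (chr5:143403838-143421901, plus strand) was at 202 and 221 CPM in WT cells and at 86.7, 94.9 and 109 CPM in KO cells (log2 fold change -1.14 ± 0.085, adjusted p = 3.65e-05). Kdelr3 was lower by 0.84, from 30.5 and 25.8 CPM to 12.3 to 19.1 CPM. Kdelr1 did not pass (log2 fold change -0.37 ± 0.14, adjusted p = 0.0995), and its KO libraries, 81.0 to 121 CPM, overlapped WT at 128 and 115 CPM.

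In the COPI coat the epsilon subunit gene Cope fell most among the abundant subunits. Cope (chr8:70302518-70312993, plus strand) was at 238 and 225 CPM in WT cells and at 82.1, 89.3 and 109.8 CPM in KO cells (log2 fold change -1.33 ± 0.10, adjusted p = 4.43e-05). The other subunits of the 7-part coat fell less: Copb2 by 0.64, Arcn1 by 0.59, Copg1 by 0.59, Copa by 0.57 and Copb1 by 0.55. Copz2, a minor zeta subunit with 26 to 100 estimated counts per cell library, was at 4.80 and 3.72 CPM in WT and 1.02 to 3.04 CPM in KO cells (log2 fold change -1.24 ± 0.33, adjusted p = 0.0339). Copg2 and Copz1, paralogues of a called subunit each, did not pass (0.04 ± 0.093 and -0.20 ± 0.086).

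Of the ARF cycle, which recruits and releases the COPI coat, Arfgap3 and Arf4 changed most. Arfgap3 (chr15:83299739-83350247, minus strand), a GTPase-activating protein of ARF1, fell by 0.93 and the GTPase genes Arf4 and Arf1 by 0.92 and 0.63. Gbf1, the exchange factor that loads ARF with GTP, fell by 0.47 and Arfgap1 by 0.41, from 66.3 and 63.8 CPM to 44.0 to 54.6 CPM. Arfgap2 did not pass, at 69.8 and 71.8 CPM in WT and 67.7 to 74.8 CPM in KO cells (0.0043 ± 0.069).

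Every fusion and tethering member was lower. The ER-Golgi SNARE gene Sec22b (chr3:97901190-97923276, plus strand) was at 98.1 and 95.4 CPM in WT cells and at 40.0, 41.6 and 46.4 CPM in KO cells (log2 fold change -1.20 ± 0.074, adjusted p = 1.18e-05). Cog6, a subunit of the COG tether of the Golgi, went from 70.7 and 68.6 CPM to 32.5, 34.6 and 39.5 CPM (-0.99 ± 0.082, adjusted p = 6.93e-05). Uso1, which encodes the tether p115, went from 159 and 155 CPM to 84.3, 86.8 and 92.1 CPM (-0.85 ± 0.065, adjusted p = 4.21e-05). WT and KO did not overlap in any of these 3. The SNARE genes Bet1, Stx5a and Gosr2 fell by 0.84, 0.51 and 0.47, and Golgb1, which encodes giantin, fell by 0.66. Among the ERGIC and YIP proteins, Yipf5 was at 66.3 and 63.0 CPM in WT cells and at 30.9, 32.4 and 36.0 CPM in KO cells (-0.98 ± 0.069, adjusted p = 2.75e-05). Ergic3, Ergic1 and Ergic2 fell by 0.55, 0.45 and 0.25, and Yif1a did not pass (-0.46 ± 0.15, adjusted p = 0.0647).

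**Figure D2:**
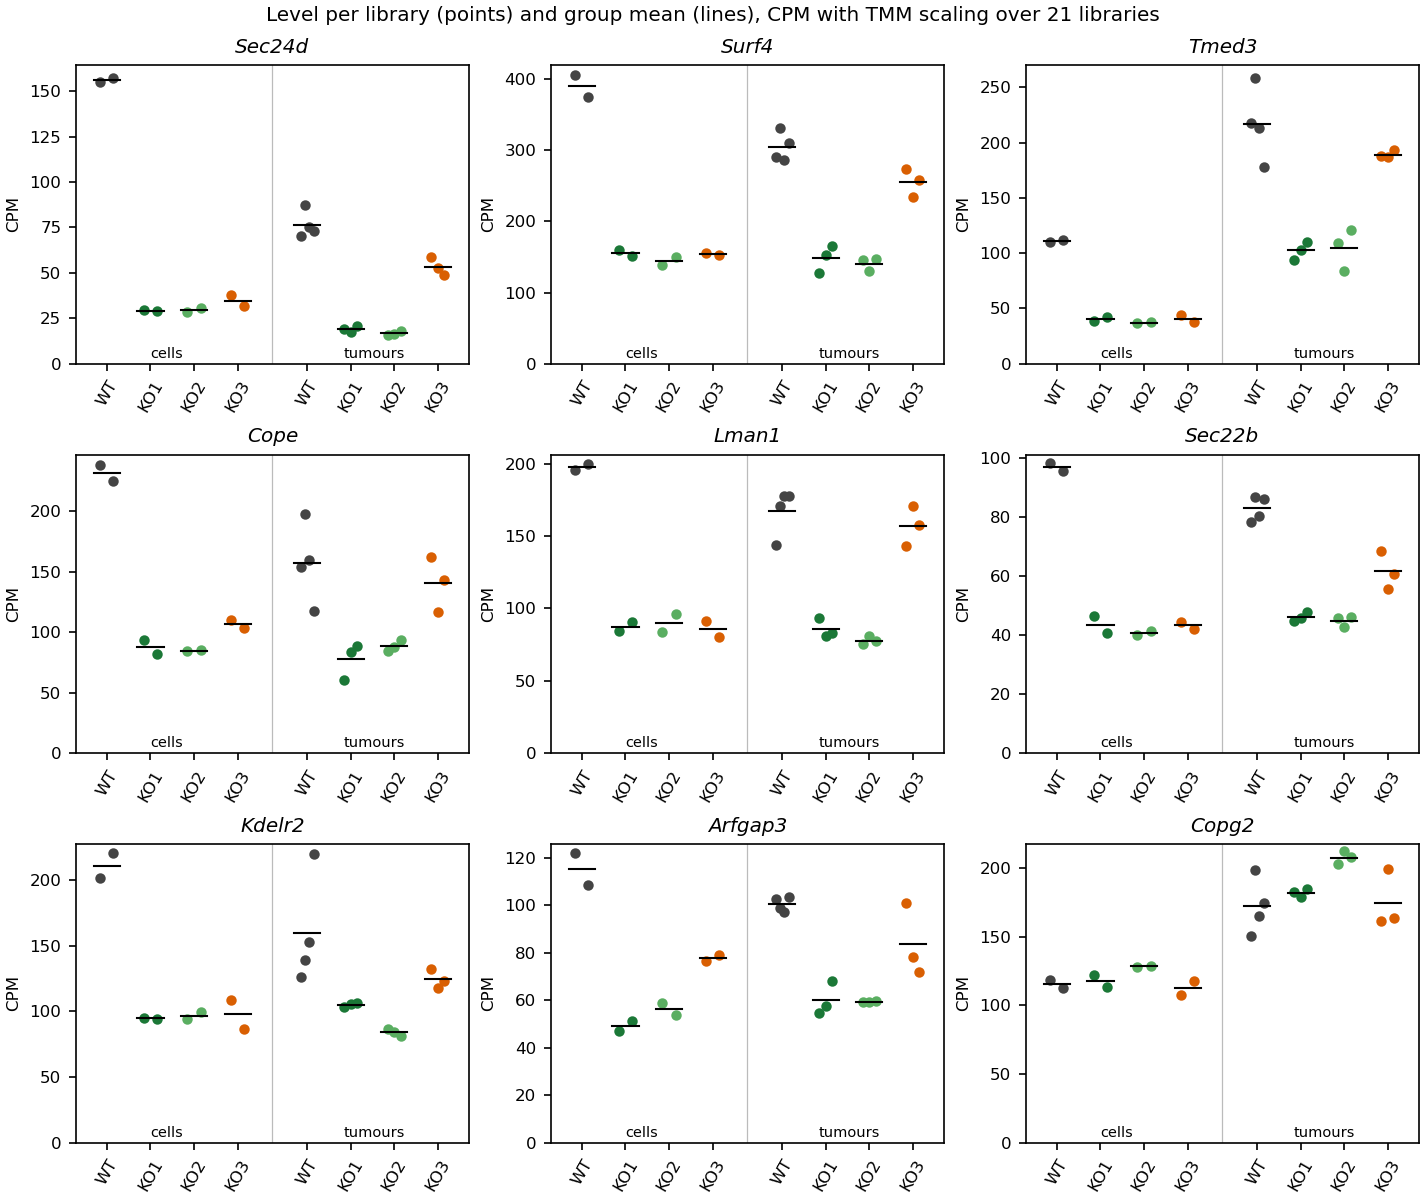
Level of 9 members in each of the 21 libraries (points; CPM on a linear axis from 0) with group means (lines), cells at the left and tumours at the right of each panel. In all but Copg2 the KO cell libraries lie below both WT cell libraries, and the KO3 tumours lie closer to the WT tumours than the KO1 and KO2 tumours do.

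Unequal falls within families shifted their make-up. Levels were divided by kilobases of exon to set genes of unlike length side by side. The length was the union of all annotated exons, not that of the transcripts expressed, so the shares depend on it. The 4 SEC24 genes summed to 74.9 ± 0.788 CPM per kb (mean ± SD, n = 2) in WT cells. In KO1, KO2 and KO3 cells they summed to 36.9 ± 0.478, 37.0 ± 0.962 and 41.4 ± 0.538. Sec24d made up 32.9% of that sum in WT cells and 12.4% ± 0.00353, 12.5% ± 0.328 and 13.2% ± 1.81 in the KO lines. The share of Sec24c rose from 45.2% ± 0.518 to 51.5%, 51.7% and 54.7%, although its own level fell. Sec24a and Sec24b took 8.67% and 13.1% in WT, and 14.9% and 21.1% in KO1 cells.

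Similar shifts were seen in families where 1 paralogue did not pass the test. Arfgap3 made up 50.6% ± 2.05 of the 3 ARFGAP genes in WT cells and 32.3% ± 0.686, 36.6% ± 2.64 and 42.5% ± 1.33 in the KO lines, and Arfgap2 became the most abundant in KO1 and KO2 cells, at 45.2% and 42.1% against 29.0% in WT. Copg1 went from 44.2% ± 0.382 of the 2 gamma-COP genes to 34.9%, 31.8% and 34.8%. Before division by length, Copg1 had more counts than Copg2 in WT cells (4150 and 3685 against 2468 and 2144). Their exon lengths were 11011 and 5121 bp. Kdelr2 went from 57.7% ± 3.62 of the KDEL receptor genes to 48.3%, 48.6% and 41.8%, and in KO3 cells Kdelr1 was the most abundant at 47.8%. The minor lectin Lman2l went from 3.52% to 7.84%, 7.87% and 7.05% of the LMAN2 pair. The SAR1 and ERGIC families moved little: Sar1a made up 46.7% of its pair in WT cells and 43.0% to 43.4% in KO cells, and Ergic3 59.4% of its family in WT and 54.7% to 59.1% in KO cells. These shares are descriptions with 2 libraries a group. Reads that paralogues share were divided by the authors' estimation.

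**Figure D3:**
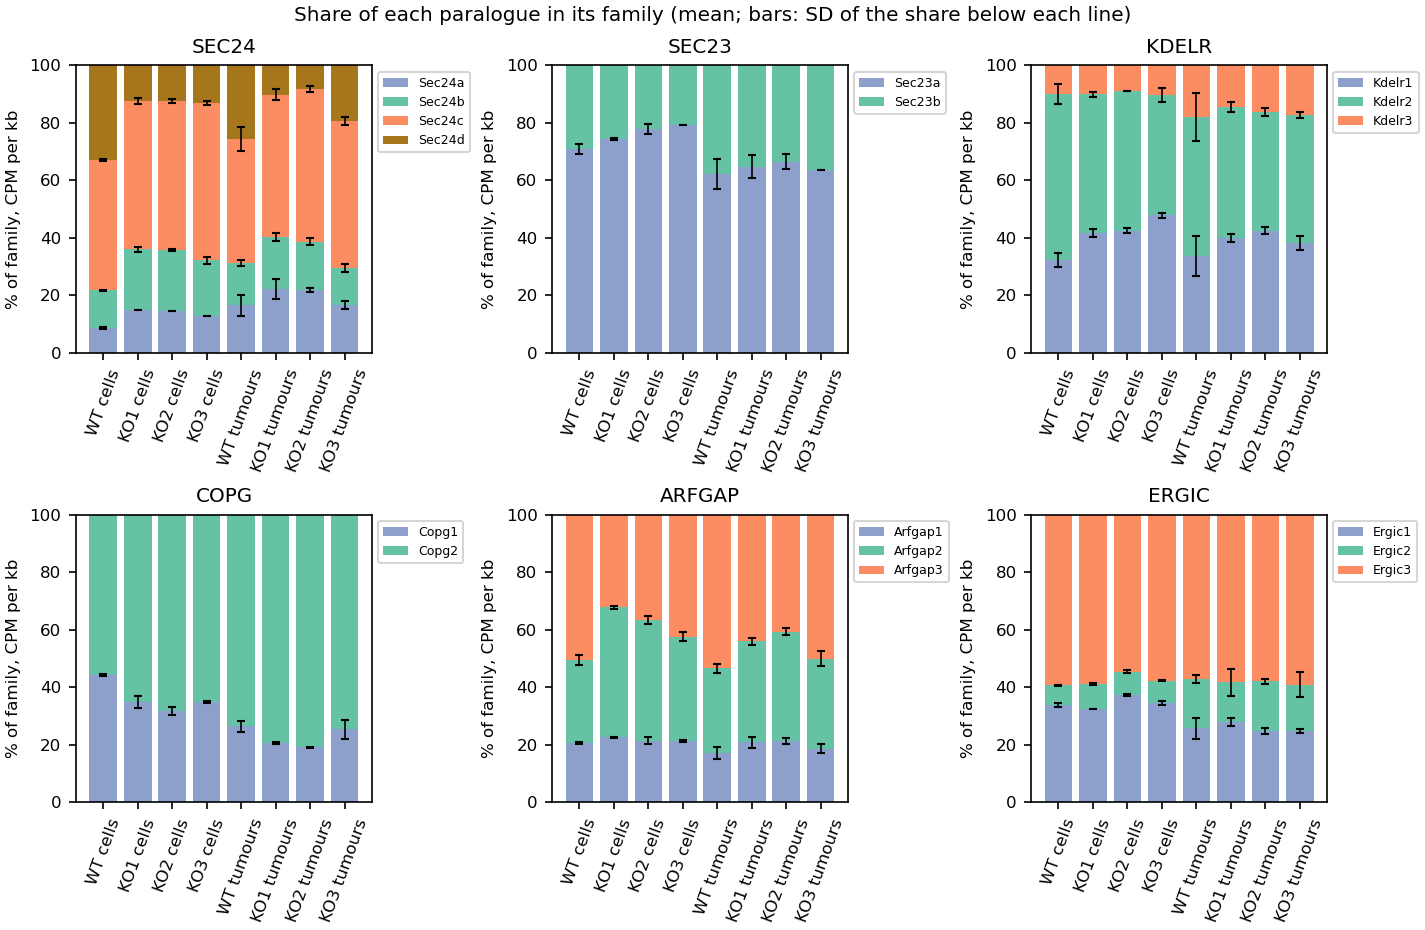
Share of each paralogue in its family, in percent of the family's summed CPM per kb, as stacked bars of group means for 6 families in the 8 groups; bars are the SD between libraries of the share drawn in the segment below. Sec24d takes 32.9% of the SEC24 genes in WT cells and 12.4% to 13.2% in KO cells, and in tumours 25.6% in WT, 10.2% in KO1, 8.41% in KO2 and 19.3% in KO3.

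The 3 KO lines did not fall by the same amount in cells. By an F test over the lines, 14 of 55 members differed, which is no larger a share than the 30.3% of all genes. Arfgap3 was at 47.0 and 51.1 CPM in KO1, 59.0 and 53.8 CPM in KO2 and 76.6 and 79.1 CPM in KO3 cells, against 122 and 109 CPM in WT (adjusted p = 0.000407). Tmed10 was at 266 and 278, then 264 and 263, then 360.4 and 374 CPM in the 3 lines and at 569 and 571 CPM in WT (adjusted p = 0.000789). Both were higher in KO3 than in the other 2 lines and still below WT. Kdelr1 was at 81.0 and 86.3 CPM in KO1, 85.7 and 87.4 CPM in KO2 and 121 and 107 CPM in KO3 cells (adjusted p = 0.00259), so that KO3 overlapped WT. Arf1 was at 477 and 493 CPM in KO3 cells, against 359 and 391 in KO1, 366 and 355 in KO2 and 644 and 603 in WT (adjusted p = 0.00357). Arf4 likewise was at 359 and 392 CPM in KO3, 267 and 310.2 in KO1, 285 and 271 in KO2 and 571 and 604 in WT cells (adjusted p = 0.00885). Copa differed in another order, with 257 and 274 CPM in KO1, 216 and 221 in KO2, 216 and 232 in KO3 and 353 and 342 in WT cells (adjusted p = 0.0114). Sec24d, Surf4, Lman1, Tmed3, Sec22b and Kdelr2 did not pass this test. The count of 14 was 8 and 9 without WT cell library 1 or 2, 9 and 7 without KO1 library 1 or 2, and 6 and 5 without KO3 library 1 or 2.

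In tumours the pooled comparison of KO with WT called few members. Of 56 tested, 6 were lower and 0 higher, with a median log2 fold change of -0.25 against 0.0017 over all genes. Of all 14200 genes, 2.37% were lower and 1.28% higher. By edgeR 29 members were lower and 0 higher at an unadjusted p under 0.05, and DESeq2 called 14 lower and 0 higher. In 4 members every KO tumour lay below every WT tumour, as in 2.15% of genes: Sec24d, Surf4, Arf1 and Sec22b. The 6 called members were Sec22b, Sec24b, Stx5a, Arfgap3, Kdelr2 and Sec24d.

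Sec22b was the member with the smallest p. It was at 78.4, 86.6, 80.3 and 86.1 CPM in the WT tumours, 44.7, 45.7 and 47.9 CPM in KO1, 45.7, 42.7 and 46.0 CPM in KO2 and 68.4, 55.6 and 60.7 CPM in KO3 tumours (pooled log2 fold change -0.70 ± 0.11, adjusted p = 0.00633). All 9 KO tumours were below WT, with KO3 between. Sec24d was at 70.3, 87.2, 75.2 and 72.9 CPM in WT, 19.3, 17.4 and 20.5 CPM in KO1, 15.7, 16.3 and 18.1 CPM in KO2 and 58.5, 52.4 and 48.9 CPM in KO3 tumours (-1.36 ± 0.35, adjusted p = 0.0465). Here KO1 and KO2 lay far below both other groups, and KO3 lay between them and WT, below every WT tumour. Kdelr2 was at 127, 139, 153 and 221 CPM in WT, with WT tumour 4 the highest, 103, 106 and 106 CPM in KO1, 86.5, 84.4 and 81.6 CPM in KO2 and 132, 118 and 123 CPM in KO3 (-0.61 ± 0.15, adjusted p = 0.0425). Its KO3 tumours overlapped WT. Arfgap3 was at 103, 98.8, 97.1 and 104 CPM in WT, 54.5, 57.6 and 68.3 CPM in KO1, 59.4, 59.0 and 59.7 CPM in KO2 and 101, 78.4 and 71.8 CPM in KO3 (-0.57 ± 0.13, adjusted p = 0.0345), and 1 KO3 tumour lay among the WT tumours.

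Stx5a and Sec24b changed less. Stx5a, the syntaxin of ER-Golgi fusion, was at 80.3, 71.6, 71.2 and 69.0 CPM in WT, 44.1, 45.3 and 46.0 CPM in KO1, 50.9, 48.7 and 55.0 CPM in KO2 and 70.4, 57.1 and 57.7 CPM in KO3 tumours (-0.46 ± 0.11, adjusted p = 0.0334). Sec24b was at 40.0, 42.1, 43.6 and 40.1 CPM in WT, 31.9, 31.6 and 33.0 CPM in KO1, 32.3, 32.0 and 31.0 CPM in KO2 and 40.6, 31.0 and 30.3 CPM in KO3 (-0.34 ± 0.076, adjusted p = 0.0287). In both genes 1 KO3 tumour, replicate 1, overlapped WT. The count of 6 rests on single libraries: it was 1 without WT tumour 2, 3 or 4, 2 without KO1 tumour 2 or 3, and 1, 2 and 3 without KO2 tumour 1, 2 or 3. It was 10 without KO3 tumour 1 or 2, 29 without line KO3, and 1 without line KO1 or KO2.

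Line by line against WT tumours, the counts were unequal. KO1 tumours had 33 members lower, with 6.86% of all 14483 genes lower and 3.71% higher, and a median of -0.45. KO2 tumours had 20 lower, with 2.15% of genes lower and 0.898% higher, and a median of -0.38. KO3 tumours had 2 lower, Sec24d and Sec22b, with 0.690% of genes lower and 0.545% higher, and a median of -0.061. In each line 0 members were higher by edgeR and by DESeq2; at an unadjusted p under 0.05 there were 0, 1 and 0 higher. Every KO1 tumour lay below every WT tumour in 37 members, as in 12.2% of all genes. For KO2 this held in 31 members (9.08% of genes), and for KO3 in 6 (6.1%).

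The count in KO1 tumours spanned all roles. It took in 5 of 8 COPII coat genes, 3 of 5 assembly factors, 4 of 5 cargo receptors, 4 of 8 p24 proteins, 2 of 3 KDEL receptors, 3 of 9 COPI genes, 3 of 6 of the ARF cycle, 7 of 7 of fusion and tethering, and 2 of 5 ERGIC and YIP genes. In KO2 tumours the cargo receptors had 4 of 5 calls and fusion and tethering 4 of 7, while the COPII coat had 2 of 8 and the COPI coat 2 of 9. The count of 33 was 19 and 18 without KO1 tumour 2 or 3. The count of 20 was 12 without WT tumour 2, and 8, 8 and 10 without KO2 tumour 1, 2 or 3. The count of 2 in KO3 tumours was 0 without WT tumour 2 or 3, without any 1 of the KO2 tumours, or without KO3 tumour 2 or 3, and 1 without WT tumour 4 or KO1 tumour 2 or 3.

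The difference among the lines was tested itself. In tumours 13 of 56 members differed between KO1, KO2 and KO3 by an F test, where 2.95% of all genes did. Sec24d led, with the values given above (adjusted p = 1.46e-05). Lman1 was at 93.1, 81.0 and 82.8 CPM in KO1, 75.2, 80.6 and 77.3 CPM in KO2, 143, 171 and 158 CPM in KO3 and 144, 171, 178 and 177 CPM in WT tumours (adjusted p = 0.00117). Surf4 was at 128, 153 and 166 CPM in KO1, 146, 130.2 and 147 CPM in KO2, 274, 235 and 259 CPM in KO3 and 291, 332, 286 and 311 CPM in WT (adjusted p = 0.00241). For both receptors KO1 and KO2 tumours lay below every KO3 and WT tumour. Tmed3 was at 93.7, 103 and 110.4 CPM in KO1, 109, 83.9 and 121 CPM in KO2, 188, 187 and 193 CPM in KO3 and 217, 259, 213 and 178 CPM in WT (adjusted p = 0.00934). Tmed10 was at 317, 319 and 349 CPM in KO1, 370.2, 326 and 356 CPM in KO2, 477, 486 and 468 CPM in KO3 and 447, 479.8, 445 and 484 CPM in WT (adjusted p = 0.0152). Golgb1 was at 71.0, 67.6 and 77.6 CPM in KO1, 70.7, 79.2 and 72.8 CPM in KO2, 115, 121 and 107 CPM in KO3 and 82.2, 117, 111 and 101 CPM in WT (adjusted p = 0.0186). In these last 3 genes the KO3 tumours overlapped WT and stood above KO1 and KO2. The count of 13 was 24 without WT tumour 1, 6 without WT tumour 3, 4 and 5 without KO1 tumour 2 or 3, 5, 6 and 5 without KO2 tumour 1, 2 or 3, and 5, 5 and 4 without KO3 tumour 1, 2 or 3.

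The SEC24 make-up followed the levels of Sec24d. Sec24d took 25.6% ± 1.31 of the family in WT tumours (SD, n = 4) and 10.2% ± 0.522, 8.41% ± 0.704 and 19.3% ± 0.561 in those of KO1, KO2 and KO3 (n = 3 each). The family summed to 47.3 ± 5.25 CPM per kb in WT and to 29.6 ± 2.48, 31.4 ± 1.88 and 43.5 ± 2.81 in KO1, KO2 and KO3. Arfgap3 took 53.5% ± 1.85, 44.1% ± 2.21, 40.8% ± 0.583 and 50.2% ± 2.71 of its family in the same order. Copg1 took 26.3% ± 1.87, 20.5% ± 0.439, 19.0% ± 0.155 and 25.3% ± 3.19. The share of Kdelr2 in WT tumours was 48.5% ± 8.43, and the KO means of 45.6%, 41.2% and 44.6% lay within 1 SD of it.

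Whether the knockout effect differed between tumours and cells was tested with an interaction. Pooled over lines, 1 member of 56 passed, with an effect less negative in tumours, and 0 passed the other way (0.863% and 0.0989% of 15173 genes). At an unadjusted p under 0.05 the effect was less negative in tumours for 27 members and more negative for 0; DESeq2 called 4 and 0. The 1 member was Yipf5, at 46.7, 57.0, 52.6 and 58.6 CPM in WT, 39.2, 37.6 and 41.5 CPM in KO1, 36.4, 37.4 and 37.6 CPM in KO2 and 51.9, 50.0 and 47.8 CPM in KO3 tumours. Its log2 fold change was -0.98 in cells and -0.34 in tumours, a difference of 0.66 ± 0.16 (adjusted p = 0.0459), and the call was lost under 16 of 27 alternatives. Among these were the fits without WT cell library 1 or 2, KO1 cell library 1 or 2, KO2 cell library 1, KO3 cell library 2, any 1 of the 4 WT tumours, KO1 tumour 3, or KO3 tumour 2 or 3. Without line KO3, 5 members passed.

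The interaction was also taken for each line, a test added after the values were seen, and most members that passed it did so in KO3. For KO3, 24 members had an effect that was less negative in tumours than in cells and 0 a more negative one, where 1.66% and 0.395% of all genes did, with a median difference of 0.63. For KO1, 4 members (Arf4, Ergic1, Tmed10 and Yipf5) had a less negative effect in tumours and 0 a more negative one, where 2.67% and 1.09% of genes did. For KO2 there were 4 (Arf4, Copb2, Tmed10 and Yipf5) and 0, where 2.25% and 1.0% of genes did. At an unadjusted p under 0.05, 36, 19 and 17 members had a less negative effect in tumours in KO3, KO1 and KO2, and 0 a more negative one in each; DESeq2 called 29, 9 and 6, with 0 the other way. Sec24d in KO3 fell by 2.21 in cells and by 0.53 in tumours, a difference of 1.71 ± 0.15 (adjusted p = 1.71e-05). The same difference was 0.48 ± 0.15 in KO1 and 0.20 ± 0.15 in KO2 (adjusted p = 0.0988 and 0.604). For Lman1 in KO3 it was 1.18 ± 0.14 (adjusted p = 0.000182), for Surf4 1.14 ± 0.15 (0.00031), for Tmed3 1.31 ± 0.21 (0.00161), for Sec23b 1.08 ± 0.18 (0.00273) and for Bet1 1.06 ± 0.19 (0.00382). The KO3 count took in 5 of 8 COPII coat genes, 5 of 9 COPI genes, 3 of 5 cargo receptors and 0 of 3 KDEL receptors, whose differences of 0.11 ± 0.18, 0.81 ± 0.21 and 0.38 ± 0.23 missed the threshold. It was 14 and 12 without WT cell library 1 or 2, and 11 and 12 without KO3 cell library 1 or 2. The count of 4 in KO1 was 2 without WT cell library 2 or KO1 cell library 1 or 2. The count in KO2 was 1 without any 1 of the WT or KO2 cell libraries. The comparisons in cells and tumours use separate WT libraries, and the lines within each share them.

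**Figure D4:**
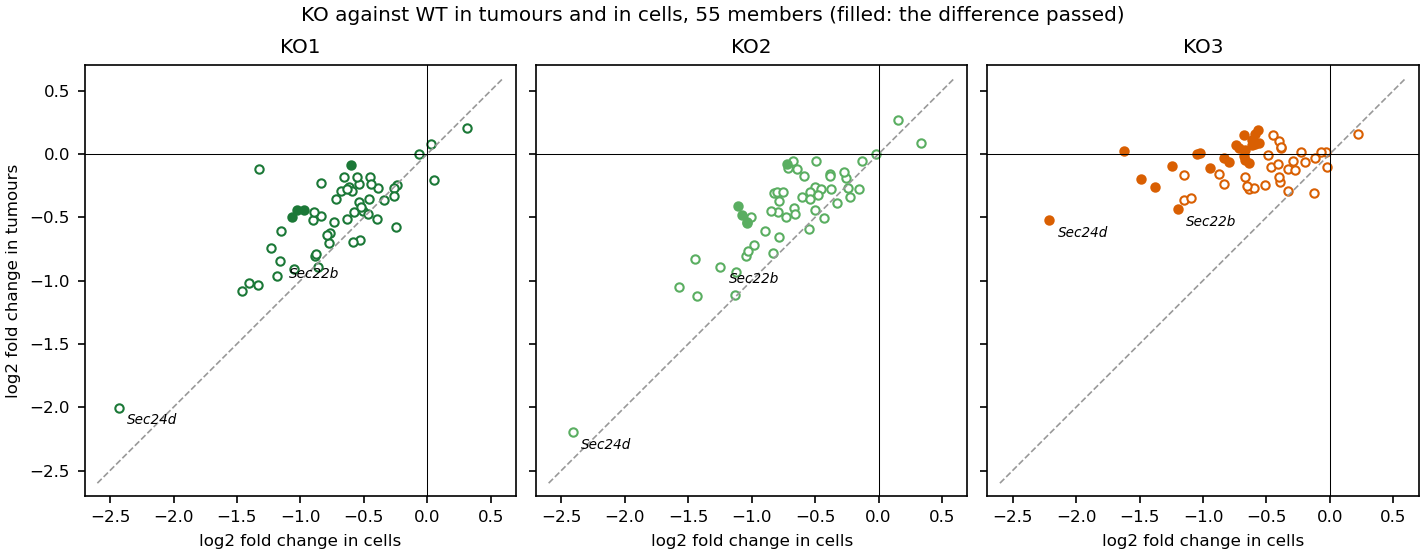
Log2 fold change against WT in tumours (y) and in cells (x) for the 55 members tested in both, one panel per KO line; the dashed line marks equal change, and filled points passed the interaction test for that line. Most KO1 and KO2 members lie below 0 on both axes, and KO3 members lie near 0 in tumours, Sec24d and Sec22b lowest.

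Summed host markers varied between tumours, and the part of host tissue in the results was not tested. The range of each KO line overlapped that of WT, except for adipocyte markers in KO2. Between KO lines some ranges did not overlap, as for fibroblast markers in KO1 against KO2 and KO3. Fibroblast markers summed to 462 to 2456 CPM in WT tumours, 1917 to 2874 in KO1, 702 to 965 in KO2 and 708 to 1584 in KO3, and 1 of the 8 was higher in KO1 than in WT. Leukocyte markers summed to 336 to 895 CPM in WT tumours, 643 to 875 in KO1, 458 to 598 in KO2 and 499 to 640 in KO3, with 1 of 9 tested lower in KO3. Skeletal muscle markers ran from 0.943 to 4163 CPM in WT tumours, 366 to 977 in KO1, 14.9 to 769 in KO2 and 1.08 to 5.22 in KO3, and endothelial markers from 69.3 to 152 CPM over all tumours. In each of these 4 lists every marker had counts in each tumour group. Neutrophil markers ran from 3.71 to 267 CPM in WT tumours and 3.83 to 9.26 CPM in KO tumours, and 2 of the 4 tested were lower in KO. Adipocyte markers summed to 146 to 678 CPM in WT tumours, 40.3 to 256 in KO1, 87.3 to 118 in KO2 and 102 to 409.8 in KO3, with 0 of 4 passing. Krt8, Cdh1 and Hoxb13 were tested as epithelial markers and did not pass in any KO line's tumours. Leaving out WT tumours 1 and 4 together, chosen after seeing the data, gave 1 called member in place of 6.

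Tumours and cells of WT differed in the make-up of the route. In WT tumours against WT cells, 23 of 56 members were lower and 12 higher, where 24.8% of all genes were lower and 34.9% higher. Preb, which activates SAR1, fell by 1.52 on the log2 scale, from 307 and 292 CPM in cells to 87.7, 111, 109 and 105 CPM in tumours. Sec24d fell by 1.01, Arf4 by 0.88 and Ergic1 by 0.88. Cog6, Tmed3, Copz2, Sar1b and Ergic2 were higher by 1.05, 0.99, 0.90, 0.87 and 0.86. Sec16b passed as higher, on 1 and 0 counts in the WT cell libraries and 16, 9, 5 and 1 in the WT tumours. These tumours hold host cells and the cultures do not, and the 2 cannot be told apart here. Without WT cell library 2 the total of 35 called members was 22.

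Per kilobase of annotated exon, Arf1 had the highest level of the members in WT cells and in WT tumours. The order of genes here depends on that length. In cells it was at 299 ± 13.7 CPM per kb, followed by Arf4 at 163 ± 6.54, Tmed2 at 159 ± 5.95, Surf4 at 119 ± 6.62 and Kdelr2 at 115 ± 7.40 (SD, n = 2). Arf4 and Tmed2, and Surf4 and Kdelr2, did not differ beyond their spread. In WT tumours Arf1 was at 302 ± 18.9, Tmed2 at 203 ± 12.6, Surf4 at 92.9 ± 6.41, Arf4 at 87.6 ± 8.04 and Kdelr2 at 87.4 ± 22.9 CPM per kb (n = 4), of which the last 3 did not differ beyond their spread. In KO cells Surf4 was at 47.3 ± 1.86, 44.0 ± 2.61 and 46.9 ± 0.797 CPM per kb.

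The other genes of the ER-Golgi route, a list of 82 that includes the TRAPP and COG tethers, RAB1 and RAB2, further SNAREs and NSF, are given here by their counts. In KO against WT cells 74 were tested, 23 were lower and 1 was higher, with a median log2 fold change of -0.16, where 9.76% of all genes were lower and 4.99% higher. The smallest p values were those of Scfd1 (-0.87 ± 0.071, adjusted p = 5.85e-05), a regulator of syntaxin 5, Yipf2 (-1.08 ± 0.11, 0.000221) and Rint1 (-0.70 ± 0.074, 0.000326), part of an ER tether. Cog5 was the 1 that was higher in this pooled comparison (0.36 ± 0.10, adjusted p = 0.0392). For KO1, KO2 and KO3 cells taken singly, 30, 27 and 26 of 74 were lower and 5, 5 and 2 higher. Of all genes, 20.5%, 20.2% and 14.1% were lower there and 17.7%, 17.4% and 10.4% higher. In KO against WT tumours 2 of 75 were lower, Tfg (-0.50 ± 0.10, adjusted p = 0.0169), which organises ER exit sites, and Rab1a (-0.39 ± 0.10, 0.0443). This is a share near the 2.37% of all genes that were lower. By line 14, 5 and 0 of 76 were lower in KO1, KO2 and KO3 tumours, where 6.86%, 2.15% and 0.690% of all genes were. At an unadjusted p under 0.05, 4 were lower and 4 higher in KO3 tumours.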

How the data were processed

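RNA of 21 libraries (polyA, paired stranded reads) was measured. The authors deposited estimated counts per gene; Salmon 1.5.2, STAR and Trim Galore 0.6.7 were used with GRCm38, per the submitters' processing notes, with settings not given in the sources used here. Salmon divides reads that paralogues share, so values of close paralogues carry that estimate. All sample columns were used. Estimated counts were rounded and tested in edgeR 4.0.16 (R 4.3.3, limma 3.58.1) with filterByExpr, TMM scaling, the quasi-likelihood F test and Benjamini-Hochberg adjustment over all genes tested, at 0.05. SE is the log2 fold change divided by the root of F. CPM are TMM-scaled over all libraries, and CPM per kb divides them by the union of exons in GENCODE M21. Promoters are RefSeq's (GRCm38.p6). Figures were drawn with matplotlib 3.10.9. The test was tried on simulated data first.

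Pooled KO comparisons join the 3 lines, and line contrasts come from a fit over all groups of that place. The interaction used cells and tumours in 1 fit. The members and lists were chosen with earlier results of these data known. Library values were given for the members past the threshold with the 12 smallest p in KO against WT cells and in tumours, the 6 smallest p for the lines, up to 8 for the pooled interaction, and for their paralogues; other members are given by fold change, range or count. Of the other genes of the route, up to 3 per direction were named, with Rab1a listed as Rab1. Genes named in the interaction of each line and in WT tumours against WT cells were chosen after their values were seen. Nothing says that libraries of a cell group came from separate cultures, so p-values there measure only the spread between libraries, which may be technical. A label field gives WT tumours 3 and 4 the same number, and they were counted as separate. Their sum was an alternative only for the pooled comparison of KO with WT tumours. The other comparisons that use WT tumours were not rerun with that sum. Replicates were checked for duplicates and none was found (chi-square per degree of freedom at least 8.39 within a group). Alternatives were DESeq2 1.42.0, RLE scaling, no filter, the authors' length-scaled table, a replicate block, lines as groups, sums per line, and leaving out each library or line. Some epithelial markers are not reported here.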

Additional observations from a re-analysis of the deposited data

Results flagged for a closer look

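In 1 group of 4 a single library stood apart: Lman2 was at 252 CPM in WT tumour 1, and the nearest of the other WT tumours was at 341 CPM. The gap was 0.866 of the group's range, above Dixon's 95% critical value for 4 samples. Chance gives such a gap in about 1 in 20 groups. The rule was applied to the WT tumours for each of the 56 members, so 1 flag is no more than chance gives.

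The effect of the knockout differed between tumours and cells by edgeR's interaction test for the following members, with adjusted p in brackets. Pooled over lines it was Yipf5 (0.0459). In KO1 they were Tmed10 (0.00378), Arf4 (0.00881), Ergic1 (0.0320) and Yipf5 (0.00739). In KO2 they were Tmed10 (0.00191), Copb2 (0.0278), Arf4 (0.0180) and Yipf5 (0.0230). In KO3 the COPII genes were Sec23b (0.00273), Sec24c (0.0382), Sec24d (1.71e-05), Sec13 (0.0401), Sec31a (0.0382), Sec16a (0.0280) and Sar1a (0.00354). The KO3 cargo receptors and p24 genes were Surf4 (3.10e-04), Lman1 (1.82e-04), Lman2 (0.0140), Tmed2 (0.0214), Tmed3 (0.00161) and Tmed10 (0.00138). The COPI and ARF genes were Copa (0.00660), Copb2 (0.0270), Copg1 (0.0320), Copz2 (0.0205), Arcn1 (0.0389), Arf4 (0.00864) and Gbf1 (0.0130). The rest in KO3 were Golgb1 (0.00699), Bet1 (0.00382), Sec22b (0.00202) and Yipf5 (4.62e-04). In all of these the log2 fold change against WT was less negative in tumours, or above 0 there.

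The KO lines differed among themselves in cells in Sec23b (0.0230), Sec24c (0.0308), Preb (0.0364), Tmed7 (0.0348), Tmed10 (7.89e-04), Kdelr1 (0.00259), Kdelr3 (0.0425), Copa (0.0114), Cope (0.0259), Arf1 (0.00357), Arf4 (0.00885), Arfgap3 (4.07e-04), Ergic1 (0.0336) and Yif1a (0.0333). In tumours they differed in Sec23b (0.0426), Sec24d (1.46e-05), Surf4 (0.00241), Lman1 (0.00117), Mcfd2 (0.0483), Tmed3 (0.00934), Tmed10 (0.0152), Cope (0.0467), Arf4 (0.0409), Golgb1 (0.0186), Bet1 (0.0477), Sec22b (0.0309) and Uso1 (0.0378). Members found in both places were Sec23b, Tmed10, Cope and Arf4.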

How the results depend on the processing

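Over the single members that passed, 4895 values under an alternative kept their direction and call, 757 kept the direction and lost the call, and 1 reversed: Kdelr2 in WT tumours against WT cells was 0.012 (log2 fold change) with the replicate block. In KO cells 736 kept the call and 110 lost it, and Kdelr2, Lman1, Sec22b, Sec24d, Surf4 and Tmed3 kept it under all 18 alternatives. The cause of the moves below was not tested, except that sums per line and left-out libraries or lines leave fewer samples. The count of called members in KO cells was 6 with libraries summed per line. In KO tumours it was 14 by DESeq2, 1 with no filter, 0 with the replicate block, 25 with lines as groups, 0 summed per line, 1, 1 and 29 without KO1, KO2 or KO3, 1 with WT tumours 3 and 4 summed, and 1 without WT tumours 1 and 4. Without a filter the counts were 0 in KO3 tumours, 0 for the pooled interaction, and 0, 1 and 12 for that of KO1, KO2 and KO3. The length-scaled table gave 0 in KO3 tumours and 7 for lines in cells. DESeq2 gave 29 for lines in tumours, 4 for the pooled interaction and 9 for that of KO1; without line KO3, added after seeing the data, the pooled interaction gave 5. With the replicate block there were 12 in KO2 tumours, 0 in KO3 tumours, 7 for lines in tumours and 0 for the pooled interaction. Replicate numbers showed no clear pairing of the libraries. Same-numbered deviations correlated at -0.050 to 0.149 in cells (2 of 12 pairs over 0.1) and -0.395 to 0.161 in tumours (3 of 18). Tumour pairs of unlike number ran from -0.342 to 0.435 (14 of 45 over 0.1). Each cell group has 2 libraries, whose deviations mirror each other, so each value in cells is counted in 2 pairs. Leaving out each library in turn gave 30 to 48 in KO cells and 1 to 10 in KO tumours. By line it gave 44 to 51, 43 to 49 and 42 to 48 in KO1, KO2 and KO3 cells, and 18 to 35, 8 to 23 and 0 to 3 in their tumours. Lines compared gave 5 to 15 in cells and 4 to 24 in tumours, the pooled interaction 0 to 1, that of KO1, KO2 and KO3 2 to 6, 1 to 6 and 11 to 28, and WT tumours against WT cells 22 to 36. Where 1 library was left in a group, it is assumed to vary like the others.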
